A study of Drosophila melanogaster with 8 samples.

Results

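Of 30 genes listed by symbol for the enzymes of glycolysis, gluconeogenesis and the pentose phosphate pathway, 29 were found among the 17562 genes of the tables. The rule used symbols and no measured value. The symbol Pepck, for cytosolic phosphoenolpyruvate carboxykinase, matched no row, because the tables call that gene Pepck1 (FBgn0003067). Glycolysis splits a hexose into a pair of pyruvate molecules, with hexokinase, phosphofructokinase and pyruvate kinase as its near-irreversible steps, and gluconeogenesis runs the chain backwards through phosphoenolpyruvate carboxykinase and fructose-1,6-bisphosphatase. The pentose phosphate pathway branches off at glucose 6-phosphate and yields NADPH in its oxidative steps and ribose 5-phosphate in its non-oxidative ones. Insect flight muscle is known for a high glycolytic capacity in which cytosolic NADH is reoxidised mainly by the glycerol 3-phosphate shuttle, the enzyme pair encoded by Gpdh1 and Gpo1 in Drosophila, and little by lactate dehydrogenase.

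The study compared the RNA of adult male Drosophila melanogaster thoraces of 2 genotypes, with 4 libraries each. In the first, tub-Gal80ts; dMef2-GAL4 flies were crossed to UAS-REPTOR[ACT], so that a constitutively active allele of the transcription factor REPTOR, a bZIP protein that TORC1 holds inactive, was driven in muscle. In the control the same line was crossed to w[1118], which left the muscle driver and the temperature-sensitive repressor with no UAS transgene. Both crosses were kept at 18 °C, males were held a further 3 to 4 days at 18 °C and then 4 days at 29 °C, where the repressor is lifted, and each RNA came from a pool of 5 to 6 thoraces. The driver is expressed in muscle, whereas the dissected thorax also holds fat body, hemocytes, trachea and nervous tissue. By the paper's methods, the gut was taken out at dissection. The labels do not say whether pools of a genotype came from separate crosses, so p-values measure the spread between these pools.

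Libraries held 29.07 to 42.74 M reads in REPTOR[ACT] and 26.79 to 50.03 M reads in control (M, 1e6). Mitochondrial transcripts took 31.6 to 34.1% of the reads in REPTOR[ACT] and 30.4 to 42.2% in control. REPTOR itself stood at 269.9 to 337 CPM in REPTOR[ACT] and 92.5 to 132 CPM in control thoraces (log2 fold change 1.51). CPM here is the read count scaled to 1e6 reads per library with edgeR's TMM factors. The 10 muscle markers summed to 29147 to 30467 CPM in REPTOR[ACT] and 24613 to 26669 CPM in control thoraces, and 5 of them were higher and 1 lower. The 5 testis markers summed to no more than 0.720 CPM in REPTOR[ACT] and 0.494 CPM in control thoraces. Control replicate 1 stood apart from the other controls over all genes. It had 30.4% mitochondrial reads, against 38.7 to 42.2% in the others, and a TMM factor of 1.125, against 0.917 to 0.982. Its mean chi-square per gene was 77.5 to 148 against each of them, and 28.3 to 39.5 among the others. The chi-square divides the squared difference in reads by its counting variance. Libraries were scaled by total reads only, so depth and the mitochondrial share enter it. Without control replicate 1, 9 of the 26 enzymes tested were called lower and 1 higher (edgeR), the lost call being that of Zw. Over all genes, 3953 of 10025 tested were then called in either direction, against 4377 of 9903 with all libraries. Among the libraries of REPTOR[ACT], replicates 2 and 3 were most often at the extremes for these enzymes. Replicate 2 was the highest of the 4 for 11 and the lowest for 13 of the 26 genes tested, and replicate 3 the highest for 12 and the lowest for 9. Among controls, replicate 4 was the highest for 12 and replicate 3 the lowest for 10. From lowest to highest, the REPTOR[ACT] ranking 2, 1, 4, 3 held for 38.5% of the 26 and 9.26% of all genes tested. The reverse ranking held for 19.2% and 8.93%. Shares of single positions over all genes were not counted. With REPTOR[ACT] replicates 2 and 3 left out, 10 of the 26 were called lower and 1 higher (edgeR), against 9 and 2 with all libraries. Over all genes, 3669 of 10178 tested were called in that setting.

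Of the 29 genes found, 26 passed the filter on low counts and were tested with edgeR's quasi-likelihood test, adjusted by Benjamini-Hochberg over all 9903 genes tested. REPTOR[ACT] thoraces had lower levels of 9 of the 26, which were Hex-A, Pgi, Pfk, Gapdh2, CG9961, Eno, PyK, CG7069 and Gpdh1, and higher levels of 2, Pglym78 and Zw, at an adjusted p below 0.05. Over all genes tested 19.4% were called lower and 24.8% higher, against 34.6% and 7.69% of these enzymes. Counted by route, 8 of 14 tested genes between hexokinase and pyruvate kinase were lower and 1 higher, whereas all 6 pentose phosphate genes had positive fold changes, of which 1 was called. The log2 fold changes of the 26 ran between −2.10 and 0.59, with a median of −0.042, beside −0.0090 over all genes tested. Their median absolute log2 fold change was 0.22, beside 0.25 over all genes. The 4 libraries of each genotype did not overlap for 10 of the 26 (8 lower and 2 higher), or 38.5%, which is close to the 41.9% over all genes tested. CG9961 was the only one of the 26 whose log2 fold change exceeded 1 in size, the study's threshold, which 6.88% of all genes passed. In whole-thorax RNA, fewer cells of a type and less RNA per cell cannot be told apart, and this holds for every value here.

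**Figure D1:**
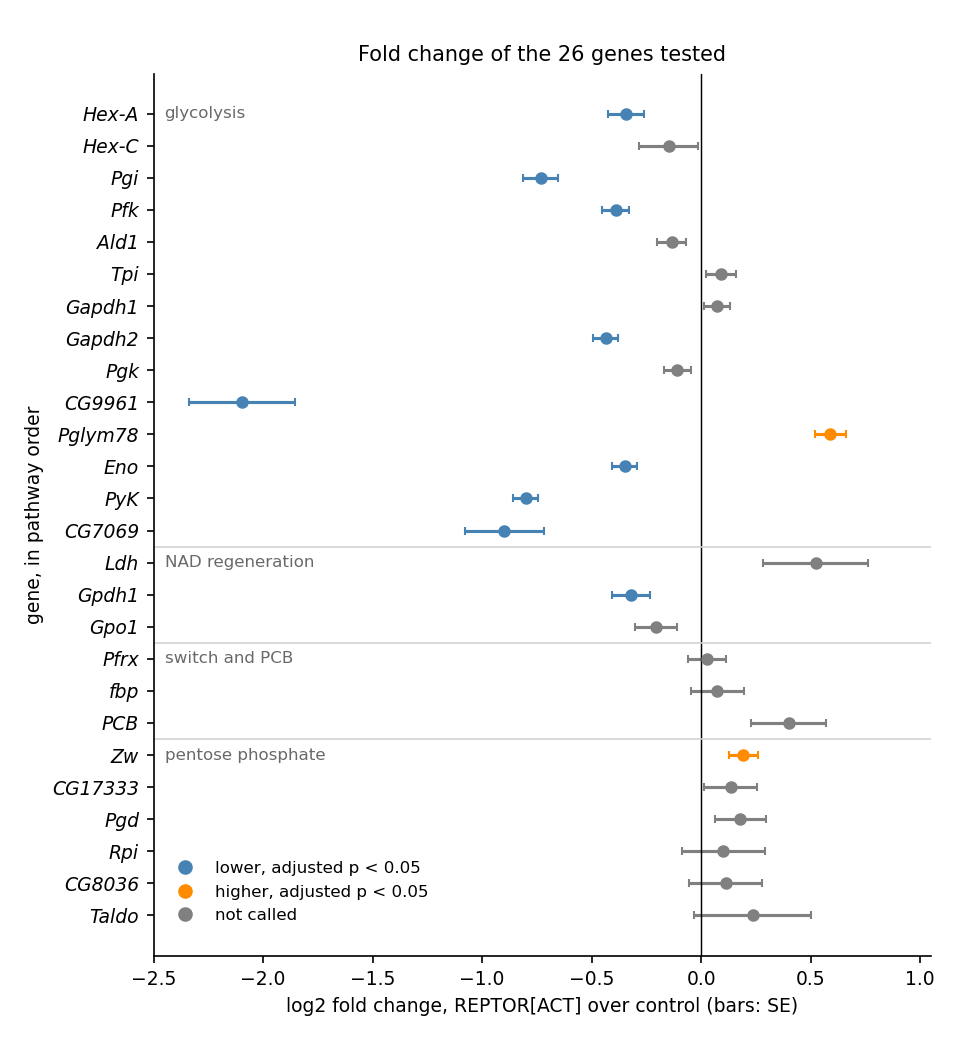
Log2 fold change of REPTOR[ACT] over control thoraces for the 26 genes tested, from top to bottom in pathway order. Bars are 1 SE, derived from the F statistic of edgeR's quasi-likelihood test on 4 libraries per genotype. The 9 genes called lower run between −2.10 (CG9961) and −0.32 (Gpdh1), the 2 called higher are Pglym78 at 0.59 and Zw at 0.19, and all 6 pentose phosphate genes lie between 0.10 and 0.24.

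The enzymes span a wide range of levels, which can be compared between genes only per length. Per kb of annotated exon, fructose-bisphosphate aldolase Ald1 had the highest mean level, 1379.9 CPM per kb in REPTOR[ACT] and 1515 CPM per kb in control thoraces. Gapdh1 followed with 965 CPM per kb in REPTOR[ACT] and 918 CPM per kb in control thoraces. PyK had 290.2 CPM per kb in REPTOR[ACT] and 506 CPM per kb in control thoraces, and Pglym78 had 303 CPM per kb in REPTOR[ACT] and 201 CPM per kb in control thoraces. The library ranges of PyK (282 to 299 CPM per kb), Pglym78 (271 to 337) and Eno (306 to 351) did not give an order of the 3 in REPTOR[ACT] thoraces, since that of Pglym78 overlapped both others, whereas in control thoraces PyK (475 to 528), Eno (403 to 428) and Pglym78 (199.9 to 202) were apart. The ranges of the 4 libraries of Gpdh1, Pgk and Tpi overlapped in each genotype, so their order is not resolved. The oxidative pentose phosphate genes were among the lower ones, with Pgd at 30.2 CPM per kb in REPTOR[ACT] and 26.7 CPM per kb in control thoraces, near Hex-C at 26.3 CPM per kb in REPTOR[ACT] and 29.2 CPM per kb in control thoraces. Zw stood at 13.6 CPM per kb in REPTOR[ACT] and 11.9 CPM per kb in control thoraces, and Ldh stood at 4.15 CPM per kb in REPTOR[ACT] and 2.85 CPM per kb in control thoraces. Exon lengths are those of all annotated isoforms merged, so a gene that uses a short isoform is understated.

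**Figure D2:**
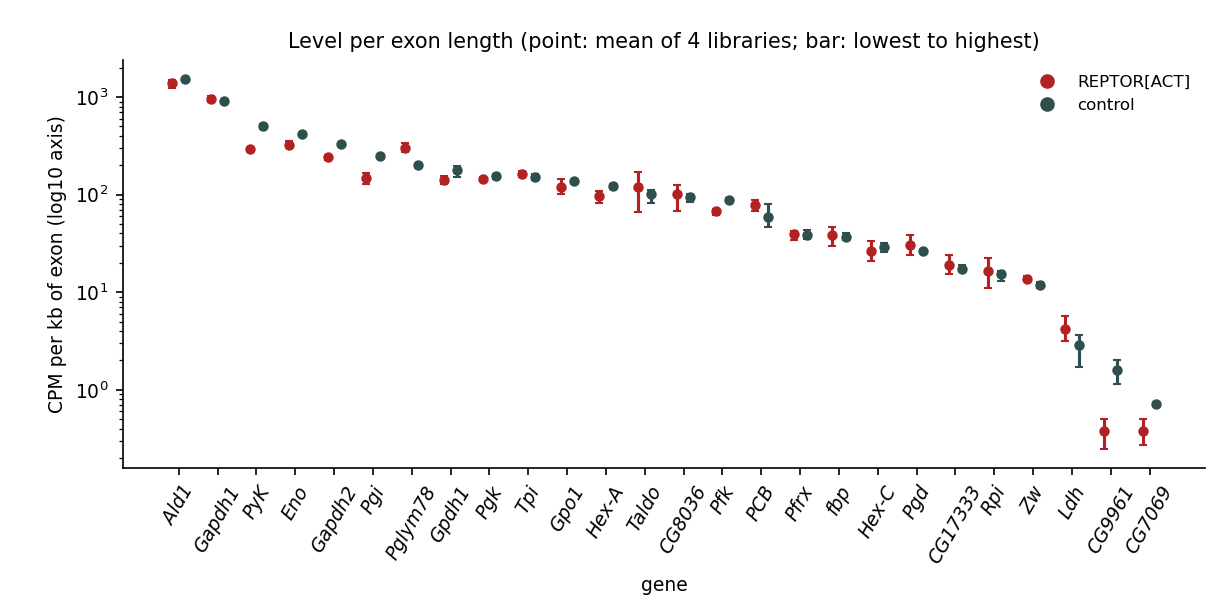
Level per kb of annotated exon (CPM per kb, log10 axis) of the 26 genes tested, ordered by the control level. Points are means of 4 libraries, bars run between the lowest and the highest library, and REPTOR[ACT] is left of control for each gene. Levels span 0.712 (CG7069) to 1515 CPM per kb (Ald1) in control thoraces.

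The first steps of glycolysis were lower in REPTOR[ACT] thoraces at hexokinase, phosphoglucose isomerase and phosphofructokinase. Hex-A, the hexokinase that muscle uses (FBgn0001186; X, 9585675 to 9589813 in BDGP6.54), had 392, 454, 343 and 395 CPM in REPTOR[ACT] thoraces, against 508, 535, 469 and 497 CPM in control thoraces. All 4 REPTOR[ACT] libraries lay below the lowest control library, and Hex-A was 1.27-fold lower (log2 fold change −0.34, SE 0.0831, adjusted p = 0.0059, edgeR's quasi-likelihood test). Hex-C, a hexokinase known from the fat body, had 39.3 ± 7.82 CPM in REPTOR[ACT] and 43.6 ± 4.42 CPM in control thoraces (SD, n = 4 each), with no call (log2 fold change −0.15, SE 0.134, adjusted p = 0.40, edgeR) and with libraries that overlapped. The hexokinase paralogues Hex-t1 and Hex-t2, known from the testis, had 34 and 16 reads in the 8 libraries together and were not tested. Pgi, which turns glucose 6-phosphate into fructose 6-phosphate (FBgn0003074, arm 2R), had 368, 315, 409 and 372 CPM in REPTOR[ACT] thoraces, against 584, 598, 624 and 629 CPM in control thoraces. Its highest REPTOR[ACT] library stood well below its lowest control library, and Pgi fell 1.66-fold (log2 fold change −0.73, SE 0.0776, adjusted p = 1.6e-05, edgeR). Pfk, the phosphofructokinase that commits fructose 6-phosphate to glycolysis (FBgn0003071, arm 2R), had 307, 311, 274 and 295 CPM in REPTOR[ACT] thoraces, against 372, 391, 391 and 401 CPM in control thoraces. The groups were again apart, with a 1.31-fold lower level in REPTOR[ACT] thoraces (log2 fold change −0.39, SE 0.0599, adjusted p = 2.7e-04, edgeR).

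The next steps after Pfk, at Ald1 and Tpi, were not called. Ald1, which cleaves fructose 1,6-bisphosphate, had 5256 ± 416 CPM in REPTOR[ACT] and 5771 ± 182 CPM in control thoraces (SD, n = 4 each; log2 fold change −0.13, SE 0.0658, adjusted p = 0.12, edgeR). Tpi, the triose phosphate isomerase, had 253 ± 17.7 CPM in REPTOR[ACT] and 237 ± 12.7 CPM in control thoraces (SD, n = 4 each; log2 fold change 0.091, adjusted p = 0.31, edgeR). In both genes libraries of the genotypes overlapped.

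Glyceraldehyde 3-phosphate dehydrogenase, which makes the NADH of glycolysis, is encoded by a pair of genes, and only the call for Gapdh2 passed the threshold. Gapdh2 (FBgn0001092; X, 15868145 to 15869661) had 349.7, 324, 359.9 and 368 CPM in REPTOR[ACT] thoraces, against 477, 472, 471 and 476 CPM in control thoraces. The 4 control libraries had an SD of 0.647% of their mean, all 4 REPTOR[ACT] libraries lay below them, and Gapdh2 was 1.35-fold lower (log2 fold change −0.44, SE 0.0571, adjusted p = 8.3e-05, edgeR). Gapdh1 had 1428 ± 87.8 CPM in REPTOR[ACT] and 1358 ± 27.5 CPM in control thoraces (SD, n = 4 each; log2 fold change 0.072, SE 0.0593, adjusted p = 0.35, edgeR). The coding sequences of these paralogues are alike, and the sources used here do not say how reads matching both were counted, so their separate levels are uncertain. Their ratio was compared within libraries and is given with the other ratios.

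In the payoff phase, 1 step was higher in REPTOR[ACT] thoraces between steps that were lower or not called. Phosphoglycerate kinase, Pgk, had 306 ± 14.4 CPM in REPTOR[ACT] and 330.0 ± 16.6 CPM in control thoraces (SD, n = 4 each; log2 fold change −0.11, SE 0.0615, adjusted p = 0.17, edgeR). Its paralogue CG9961 (FBgn0031451; 2L, 2743375 to 2744934) was barely expressed, with 0.352, 0.728, 0.568 and 0.547 CPM in REPTOR[ACT] thoraces, against 1.65, 2.40, 2.89 and 2.32 CPM in control thoraces. These levels rest on 15, 21, 17 and 19 reads in REPTOR[ACT] and 54, 115, 76 and 80 reads in control libraries. All 4 REPTOR[ACT] libraries were below the lowest control, and CG9961 was 4.28-fold lower (log2 fold change −2.10, SE 0.242, adjusted p = 3.2e-05, edgeR), the largest fold among the enzymes and in the gene with the lowest count. Its exons share 3 bases with those of Hrs on the other strand, at 26.7 CPM before TMM scaling.

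Pglym78, a phosphoglycerate mutase (FBgn0014869; 3R, 29148248 to 29149901), was the exception in direction. It had 351, 382, 308 and 334 CPM in REPTOR[ACT] thoraces, against 229, 229, 227 and 228 CPM in control thoraces. The control libraries were nearly equal, all 4 REPTOR[ACT] libraries were above them with replicate 2 the highest, and Pglym78 was 1.50-fold higher (log2 fold change 0.59, SE 0.0694, adjusted p = 3.6e-05, edgeR). Its paralogue Pglym87 had 1 read, in REPTOR[ACT] replicate 4, and was not tested. Enolase, Eno (FBgn0000579; 2L, 1724768 to 1729636), which forms phosphoenolpyruvate, had 1303, 1210.1, 1138 and 1189 CPM in REPTOR[ACT] thoraces, against 1496, 1544, 1537 and 1591 CPM in control thoraces. Every REPTOR[ACT] library was below every control library, a 1.27-fold lower level (log2 fold change −0.35, SE 0.0583, adjusted p = 5.1e-04, edgeR). Of Eno's exon bases, 362 are also exonic on the opposite strand in Rrp40, whose own level was 3.68 CPM averaged over libraries before TMM scaling.

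Pyruvate kinase, PyK, which closes the pathway by making pyruvate and ATP (FBgn0267385; 3R, 22367536 to 22372746), had the smallest adjusted p of the enzymes. It had 638, 633, 669 and 662 CPM in REPTOR[ACT] thoraces, against 1066, 1143, 1142 and 1185 CPM in control thoraces. REPTOR[ACT] libraries were tightly grouped, far below the controls, and PyK was 1.74-fold lower (log2 fold change −0.80, SE 0.0560, adjusted p = 7.4e-07, edgeR). The pyruvate kinase paralogue CG7069 (FBgn0038952; 3R, 22372835 to 22375579) had 1.01, 0.728, 1.34 and 1.04 CPM in REPTOR[ACT] thoraces, against 1.83, 2.02, 1.86 and 1.95 CPM in control thoraces. All REPTOR[ACT] libraries were lower than all controls (log2 fold change −0.90, SE 0.180, adjusted p = 0.0018, edgeR), on 21 to 43 reads per REPTOR[ACT] and 49 to 97 reads per control library. CG7069 begins 88 bases after the end of PyK on the same strand, and the level of PyK was 633 times that of CG7069 in REPTOR[ACT] and 592 times in control thoraces. Whether reads that run past the end of PyK are part of the CG7069 count was not tested.

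**Figure D3:**
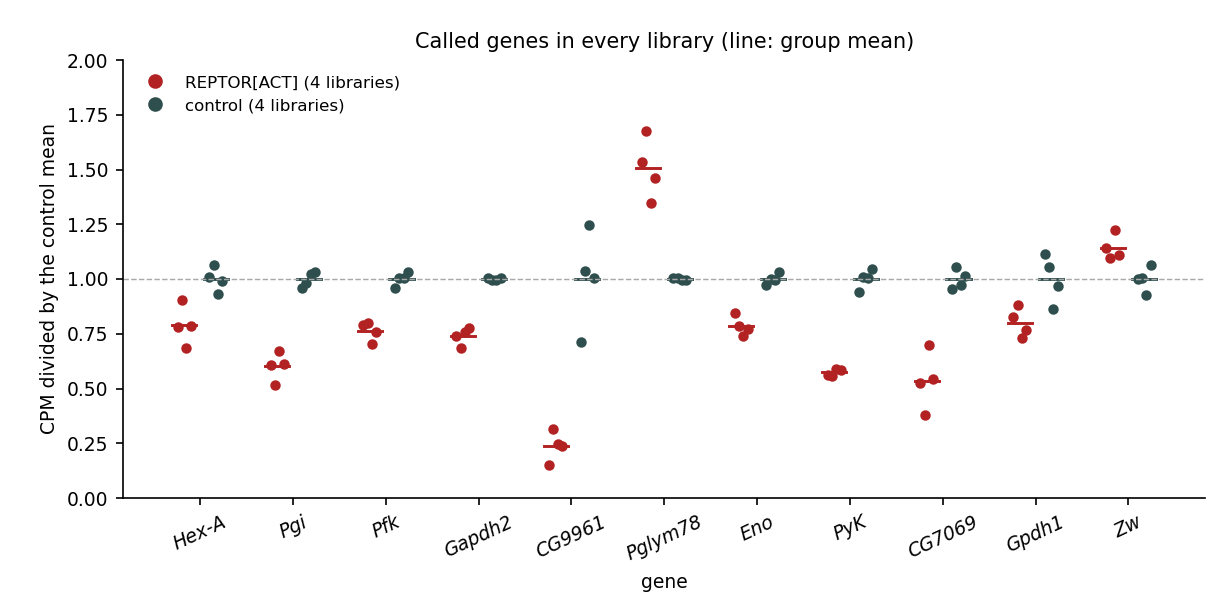
CPM of the 11 called genes in every library, each divided by that gene's mean over the 4 control libraries, with REPTOR[ACT] left of control and a line at each group mean. In 8 genes all REPTOR[ACT] points lie below all control points, in Pglym78 and Zw all lie above, and in Gpdh1 the groups overlap.

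Summed over the 17 genes between hexokinase and pyruvate kinase, glycolysis took 1.64 ± 0.0773% of nuclear reads in REPTOR[ACT] and 2.01 ± 0.0320% in control thoraces (SD, n = 4 each). The single libraries were 1.69, 1.70, 1.53 and 1.65% in REPTOR[ACT], against 1.97, 2.01, 2.02 and 2.05% in control thoraces, with no overlap and a log2 difference of −0.29. Ald1, for which no change was called, made up 48.2% of these reads in REPTOR[ACT] and 45.7% in control thoraces. Without Ald1 the share was 0.850 ± 0.0252% in REPTOR[ACT] and 1.09 ± 0.0136% in control thoraces (SD, n = 4 each), a log2 difference of −0.36. The 10 muscle markers moved the other way as a sum, by the ranges given above. Among them the flight muscle actin Act88F was 8.79-fold higher (adjusted p = 5.6e-09, edgeR) and myofilin, Mf, 3.36-fold lower (adjusted p = 1.3e-08, edgeR), and their part in the glycolytic values was not tested. The share is relative to nuclear reads. With mitochondrial transcripts in the denominator the log2 difference of glycolysis was −0.19.

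Of the genes that regenerate NAD in the cytosol, only Gpdh1 was called. Gpdh1, the glycerol 3-phosphate dehydrogenase that reduces dihydroxyacetone phosphate (FBgn0001128; 2L, 5943643 to 5948968), had 462, 491, 408 and 428 CPM in REPTOR[ACT] thoraces, against 621, 589, 483 and 540.4 CPM in control thoraces. REPTOR[ACT] replicate 2 was above control replicate 3, the groups otherwise being apart, and Gpdh1 was 1.25-fold lower (log2 fold change −0.32, SE 0.0873, adjusted p = 0.011, edgeR). Its mitochondrial partner Gpo1, which passes the electrons to the respiratory chain, had 348 ± 55.3 CPM in REPTOR[ACT] and 401 ± 10.8 CPM in control thoraces (SD, n = 4 each) with no call (log2 fold change −0.21, SE 0.0971, adjusted p = 0.11, edgeR). Blocked on replicate number it passed (log2 fold change −0.22, adjusted p = 0.034, edgeR), and it did so without REPTOR[ACT] replicate 2 (log2 fold change −0.30, adjusted p = 0.0058, edgeR) and without replicates 2 and 3 together (log2 fold change −0.27, adjusted p = 0.019, edgeR).

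Lactate dehydrogenase, Ldh, was low in all libraries, with 7.95, 11.0, 7.15 and 6.19 CPM in REPTOR[ACT] thoraces, against 6.05, 7.03, 3.35 and 5.69 CPM in control thoraces. The groups overlapped and no change was called (log2 fold change 0.52, SE 0.238, adjusted p = 0.11, edgeR). Blocked on replicate number the call passed (log2 fold change 0.54, adjusted p = 0.013, edgeR), REPTOR[ACT] being the higher of each same-numbered pair, and it passed by DESeq2 (log2 fold change 0.52, adjusted p = 0.0497). Same-numbered libraries of the genotypes deviated together from their group means, with correlations across genes of 0.14 to 0.43. Libraries of different number reached 0.221, in a pairing of replicates 3 and 4, which is as high as replicate 3 with its own number and above replicate 4 with its own. Every same-numbered correlation being above 0.1, the set limit, the blocked values of Gpo1 and Ldh are given beside the unblocked ones.

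The genes of the fructose bisphosphate switch were not called. Pfrx, which makes and breaks down fructose 2,6-bisphosphate, the activator of phosphofructokinase, had 168 ± 14.9 CPM in REPTOR[ACT] and 165 ± 15.9 CPM in control thoraces (SD, n = 4 each; log2 fold change 0.027, adjusted p = 0.82, edgeR). The gluconeogenic fructose-1,6-bisphosphatase, fbp, had 46.2 ± 8.83 CPM in REPTOR[ACT] and 43.9 ± 3.14 CPM in control thoraces (SD, n = 4 each; log2 fold change 0.074, adjusted p = 0.65, edgeR). The sign of fbp changed without REPTOR[ACT] replicate 3 (log2 fold change −0.036).

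Pyruvate carboxylase, PCB, which makes oxaloacetate from pyruvate, had 347, 414, 408 and 319.7 CPM in REPTOR[ACT] thoraces, against 299, 376, 219.6 and 234 CPM in control thoraces. REPTOR[ACT] libraries lay above 3 of the 4 controls, control replicate 2 lay within their range, and no change was called (log2 fold change 0.40, SE 0.173, adjusted p = 0.095, edgeR). Without control replicate 2 the call passed (log2 fold change 0.58, adjusted p = 0.0059, edgeR), and with all libraries it passed by DESeq2 (log2 fold change 0.38, adjusted p = 0.045). Phosphoenolpyruvate carboxykinase could not be followed in its cytosolic form. Pepck1 had 0 reads in all 8 libraries, and all 2486 bases of its exons lie, in the annotation used here, in exons of CG45087 on the same strand, which also had 0 reads. A count of 0 for a gene whose every base is shared says nothing of its level. The mitochondrial paralogue Pepck2, which is not among the 29, had 30.2, 32.0, 27.6 and 32.7 CPM in REPTOR[ACT] thoraces, against 45.1, 57.4, 55.0 and 49.4 CPM in control thoraces, with all REPTOR[ACT] libraries below the controls (log2 fold change −0.76, SE 0.0852, adjusted p = 2.6e-05, edgeR).

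In the pentose phosphate pathway only Zw was called. Zw, glucose-6-phosphate dehydrogenase, the entry step and a source of NADPH (FBgn0004057; X, 19667252 to 19672353), had 34.1, 32.6, 36.5 and 33.1 CPM in REPTOR[ACT] thoraces, against 29.8, 30.0, 27.7 and 31.7 CPM in control thoraces. The lowest REPTOR[ACT] library was just above the highest control, and Zw was 1.14-fold higher (log2 fold change 0.19, SE 0.0644, adjusted p = 0.030, edgeR). This call was lost without REPTOR[ACT] replicate 1 (adjusted p = 0.058), REPTOR[ACT] replicate 3 (0.087), control replicate 1 (0.064) or control replicate 3 (0.072) in the same edgeR test, and with total library size as the only scaling (0.093), with a positive fold change in each. Zw shares 42 exon bases with et and 369 with asRNA:CR44512 on the opposite strand, at 10.1 and 0.260 CPM before TMM scaling.

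The other pentose phosphate genes had means that differed by less than 1 SD of the REPTOR[ACT] libraries. CG17333, the 6-phosphogluconolactonase, had 16.1 ± 3.09 CPM in REPTOR[ACT] and 14.7 ± 0.968 CPM in control thoraces (SD, n = 4 each; log2 fold change 0.13, adjusted p = 0.39, edgeR). Pgd, the NADPH-yielding 6-phosphogluconate dehydrogenase, had 57.3 ± 11.2 CPM in REPTOR[ACT] and 50.6 ± 0.850 CPM in control thoraces (SD, n = 4 each; log2 fold change 0.18, adjusted p = 0.24, edgeR). Rpi, the ribose-5-phosphate isomerase, had 20.5 ± 5.79 CPM in REPTOR[ACT] and 19.2 ± 2.13 CPM in control thoraces (SD, n = 4 each; log2 fold change 0.10, adjusted p = 0.70, edgeR). None of these was called, and the 2 enzymes that shuttle carbon back to glycolysis, transketolase and transaldolase, were not either. The log2 fold change was 0.24 for transaldolase, Taldo (adjusted p = 0.51, edgeR), and 0.11 for the transketolase CG8036 (adjusted p = 0.62, edgeR). Taldo had 130.4, 74.5, 189.7 and 144 CPM in REPTOR[ACT] thoraces, against 118, 91.6, 124 and 124 CPM in control thoraces. CG8036 had 286, 185, 346 and 298 CPM in REPTOR[ACT] thoraces, against 260.2, 234, 259 and 278 CPM in control thoraces. In each, REPTOR[ACT] replicate 2 was below all controls and replicate 3 above them all.

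The same ranking of the REPTOR[ACT] libraries, with replicate 2 lowest, then 1, then 4, and replicate 3 highest, was found for 10 of the 26 enzymes, namely Hex-C, fbp, CG17333, Pgd, Rpi, CG8036, Taldo, Pgi, PyK and CG7069. It was found for 9.26% of all genes tested. Pgd had 53.2, 45.6, 72.2 and 58.2 CPM in REPTOR[ACT] replicates 1 to 4, while its control libraries spanned 50.1 to 51.9 CPM. A further 5 enzymes, Pfk, Ald1, Gapdh1, Pglym78 and Gpdh1, had replicate 3 lowest and replicate 2 highest with 4 and 1 between. That ranking was found for 8.93% of all genes tested.

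Markers of other tissues moved over these libraries too. The 5 fat body markers found, of which 4 were tested and 1 (AkhR) was called lower, summed to 5109.6, 3344, 5115 and 4127 CPM in REPTOR[ACT] and 4134, 3907, 3476 and 3590.3 CPM in control libraries. The 5 gut markers, of which 3 were tested and none called (adjusted p 0.12 to 0.58, edgeR), summed to 31.5, 15.3, 90.4 and 53.5 CPM in REPTOR[ACT] and 44.6, 25.9, 39.5 and 37.3 CPM in control libraries, most of it from the amylase Amy-p, with lambdaTry at 0 throughout. The gut sum had the same ranking of the REPTOR[ACT] libraries as Taldo. The paper's methods describe removal of the gut at dissection, and whether gut remnants gave these reads was not tested. In the fat body sum replicate 2 was also lowest and replicate 3 highest, with 4 below 1. Its single markers differed. Only Lsp2 among those tested had the ranking of the sum. The marker apolpp, most of the sum, had replicate 2 lowest and replicate 1 highest (3176 and 4611 CPM). AkhR had replicate 3 lowest and replicate 2 highest (30.4 and 43.4 CPM). Lst had replicate 1 lowest and replicate 3 highest (19.7 and 27.7 CPM). The muscle sum had the ranking of Pfk, Ald1, Gapdh1, Pglym78 and Gpdh1, and the neuron sum that of Hex-A, Pgk and Gpo1. Hemocyte and trachea sums ranked like Gapdh2 and Pfrx, and glia and testis sums like none of the enzymes. The part of these tissues in the pentose phosphate values, or in those of other enzymes, was not tested. Without REPTOR[ACT] replicate 2, edgeR's test called CG8036 (log2 fold change 0.28, adjusted p = 0.018), Taldo (log2 fold change 0.45, adjusted p = 0.040) and Pgd (log2 fold change 0.29, adjusted p = 0.028) higher. Without REPTOR[ACT] replicate 3, in contrast, the log2 fold changes of CG8036 and Rpi turned to −0.0081 and −0.084. As a share of nuclear reads the 6 genes took 0.0817 ± 0.0208% in REPTOR[ACT] and 0.0776 ± 0.00619% in control thoraces (SD, n = 4 each).

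**Figure D4:**
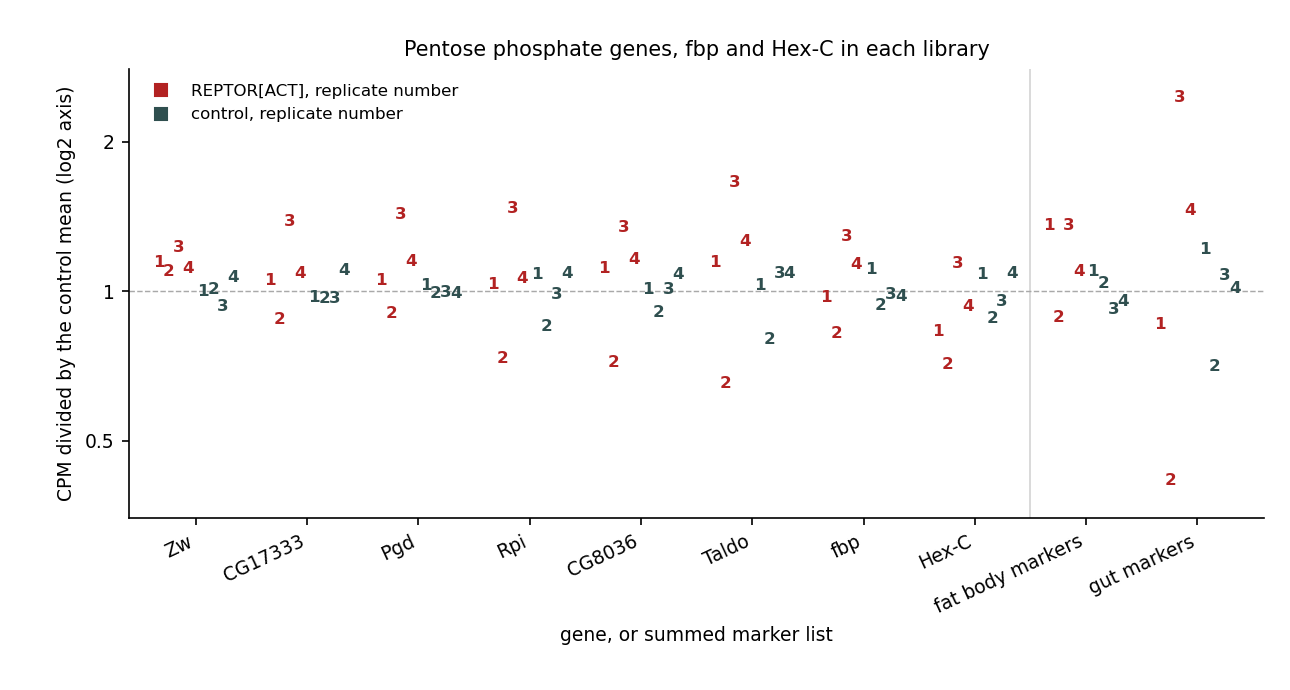
Pentose phosphate genes, fbp, Hex-C and the summed fat body and gut markers in every library, as CPM divided by the control mean (log2 axis). Each digit is the replicate number of a library, with REPTOR[ACT] left of control. REPTOR[ACT] replicate 3 is the highest and replicate 2 the lowest of its group for all of these genes and for both marker sums. The fat body sum is mostly apolpp, and its single markers do not share that ranking, AkhR having the opposite extremes. Control libraries lie closer together, except for Zw.

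Ratios of a pair of genes within a library do not depend on the scaling between libraries. Of 6 pairs chosen, 5 could be computed, and each was compared with a two-sided exact permutation test over the 8 libraries, whose smallest p is 0.0286, adjusted by Benjamini-Hochberg over the 5. The pairs share a step, a substrate or a cofactor, but were chosen when fold changes of several of these genes, Pgi, Gapdh2, Pfk, Hex-A and Ldh among them, were known, so these p-values describe the separation of the libraries and are not independent evidence of a difference. The log2 ratio of Zw to Pgi, the enzymes that compete for glucose 6-phosphate, was −3.43, −3.27, −3.48 and −3.49 in REPTOR[ACT] libraries, against −4.29, −4.32, −4.49 and −4.31 in control libraries. The groups did not overlap and differed by 0.93 or 1.91-fold (adjusted p = 0.048, exact permutation test), the log2 fold changes being 0.19 for Zw and −0.73 for Pgi. The log2 ratio of Ldh to Gpdh1, the alternative routes of NADH reoxidation, was −5.86, −5.49, −5.83 and −6.11 in REPTOR[ACT] libraries, against −6.68, −6.39, −7.17 and −6.57 in control libraries. It was higher in all REPTOR[ACT] libraries than in any control, by 1.84-fold (adjusted p = 0.048, exact permutation test). The geometric mean ratio of Ldh to Gpdh1 was 0.0177 in REPTOR[ACT] and 0.00960 in control thoraces, reads of both genes uncorrected for length.

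The log2 ratio of Gapdh2 to Gapdh1 was −2.08, −2.21, −1.86 and −1.96 in REPTOR[ACT] libraries, against −1.49, −1.56, −1.50 and −1.52 in control libraries. The genotypes did not overlap, with a difference of −0.51 (adjusted p = 0.048, exact permutation test). The ratio of fbp to Pfk, the opposing enzymes of the fructose bisphosphate step, was 1.36-fold higher but overlapped between genotypes (log2 difference 0.45, adjusted p = 0.071, exact permutation test). It passed without REPTOR[ACT] replicate 2 (log2 difference 0.58, adjusted p = 0.036, exact permutation test). The ratio of Hex-C to Hex-A differed by 0.18 on the log2 scale (adjusted p = 0.49, exact permutation test). With same-numbered libraries paired, no ratio could pass, since 4 pairs allow an exact p of 0.125 at best.

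**Figure D5:**
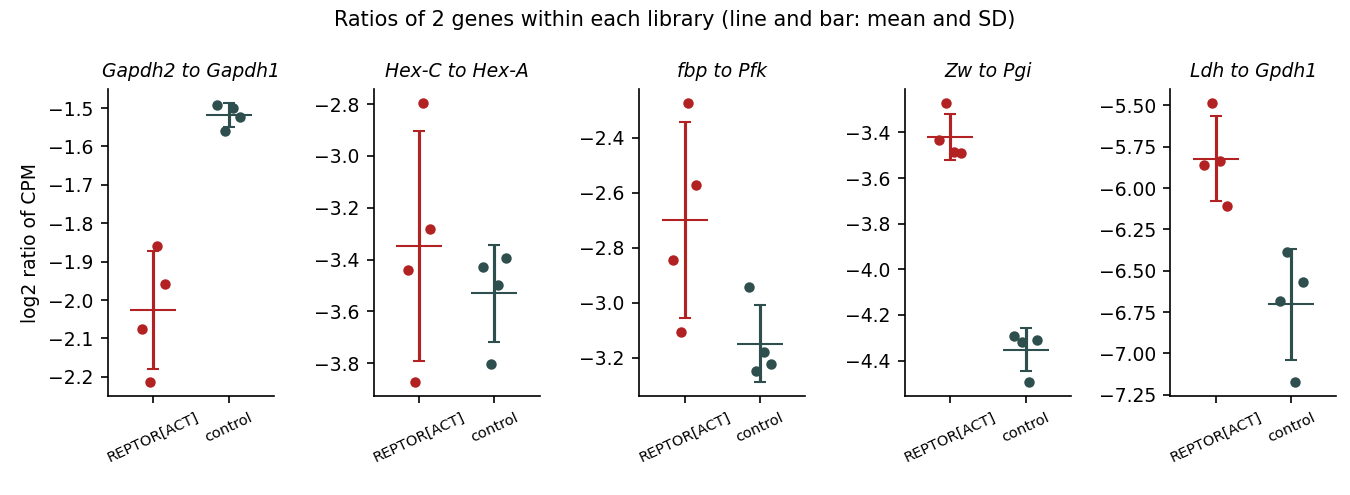
Log2 ratio of the CPM of 2 genes within each library for the 5 pairs, with REPTOR[ACT] left of control, points for single libraries and the mean ± SD of 4 libraries. The genotypes do not overlap for Gapdh2 to Gapdh1, Zw to Pgi and Ldh to Gpdh1, and they overlap for Hex-C to Hex-A and fbp to Pfk. The vertical axes differ between panels.

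Genes that supply, drain or regulate these pathways were counted from a list of 52, of which 51 were found and 38 tested. REPTOR[ACT] thoraces had 12 of the 38 called lower and 5 higher by edgeR's test, beside 19.4% and 24.8% over all genes, with a median log2 fold change of −0.023. Pyruvate entry into mitochondria had 4 of 7 lower and 1 higher, Pdk, the kinase that inhibits pyruvate dehydrogenase, which was named after its values were seen (log2 fold change 0.27, SE 0.0943, adjusted p = 0.038, edgeR). Pdha, the E1 alpha subunit of pyruvate dehydrogenase, had 269, 272, 260.0 and 266 CPM in REPTOR[ACT] thoraces, against 412, 407, 399.7 and 399.7 CPM in control thoraces, each REPTOR[ACT] library being far below each control (log2 fold change −0.60, SE 0.0511, adjusted p = 3.0e-06, edgeR). The mitochondrial pyruvate carrier genes CG9399 (log2 fold change −0.51) and Mpc1 (−0.32) and the E2 subunit of pyruvate dehydrogenase, muc (−0.26), were also lower (adjusted p at most 0.0046, edgeR). Pdhb, the E1 beta subunit, had 260.0 ± 7.08 CPM in REPTOR[ACT] and 253 ± 1.94 CPM in control thoraces (SD, n = 4 each; adjusted p = 0.58, edgeR).

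Of 9 genes of glycerol and malate handling, 4 were lower and the others not called, beside 19.4% lower over all genes tested. The lower ones were the mitochondrial malate dehydrogenase Mdh2 (log2 fold change −0.42, SE 0.0558, adjusted p = 9.3e-05), the malic enzyme Men-b (log2 fold change −0.48), and the glycerol kinases Gk2 (−0.58) and Gk1 (−0.21, adjusted p = 0.045), by edgeR. Of 9 genes of sugar entry and hexose handling, the phosphoglucomutase Pgm1 was higher (log2 fold change 0.32, SE 0.0993, adjusted p = 0.021) and Gfat1, the entry to hexosamine synthesis, lower (log2 fold change −0.28, SE 0.0938, adjusted p = 0.033), both by edgeR with groups that overlapped. The glucose transporter Glut1 had 60.4 ± 2.65 CPM in REPTOR[ACT] and 63.7 ± 3.14 CPM in control thoraces (SD, n = 4 each; adjusted p = 0.32, edgeR). Among other isozymes 2 of 4 tested were lower, Pepck2 and the phosphoglycerate mutase paralogue CG7059 (log2 fold change −0.77, SE 0.139, adjusted p = 8.6e-04, edgeR), and 10 of the 14 listed were too low to test.

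Of 9 genes for known regulators of these enzymes, 3 were higher and 1 lower, beside 24.8% and 19.4% over all genes tested. The sugar-sensing partners Mondo and bigmax, whose human counterparts are MondoA or ChREBP and Mlx, were higher without overlap, Mondo with 73.3 ± 5.62 CPM in REPTOR[ACT] and 60.5 ± 2.59 CPM in control thoraces (SD, n = 4 each; log2 fold change 0.28, SE 0.0671, adjusted p = 0.0057, edgeR). The gene bigmax had 30.7, 30.9, 28.3 and 28.0 CPM in REPTOR[ACT] thoraces, against 16.9, 17.9, 19.0 and 19.5 CPM in control thoraces (log2 fold change 0.69, SE 0.0690, adjusted p = 1.1e-05, edgeR). Myc, a growth regulator, was higher with groups that overlapped (log2 fold change 0.56, SE 0.143, adjusted p = 0.010, edgeR). ERR, the estrogen-related receptor known to drive glycolytic genes in Drosophila embryos and larvae, was lower by edgeR with overlapping groups (log2 fold change −0.22, SE 0.0821, adjusted p = 0.048). The calls of Pgm1, Gfat1, Gk1, ERR and Pdk were lost when single libraries were left out, of either genotype, and those of Mondo (adjusted p = 0.056) and Myc (0.059) when REPTOR[ACT] replicates 2 and 3 were left out together. The gene sima, for the HIF alpha subunit, had 93.2 ± 3.31 CPM in REPTOR[ACT] and 103 ± 11.1 CPM in control thoraces (SD, n = 4 each) with no call (adjusted p = 0.16, edgeR).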

How the data were processed

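Poly-A RNA of 8 thorax pools was sequenced, and groups and replicate numbers were taken from the labels. The authors aligned reads with STAR to the FlyBase genome and deposited an expected count for each gene in each library, unscaled for depth. The labels name a mouse build, which cannot apply to fly reads. Which program counted reads, and with what strand setting, is not stated, so overlapping genes on opposite strands could not be separated.

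All deposited values were multiples of 0.25 (tolerance 1e-06) and were multiplied by 4, the number of sequencing pools per library in the methods, to give whole reads. A gene at 0 reads could hold up to 3 by counting error alone, or 0.0600 to 0.112 CPM before TMM scaling. No library was a copy of another, as the squared differences of within-group pairs averaged 20.4 times the counting variance (chi-square per gene) or more. Of 17562 genes, 14919 had a read and 9903 passed filterByExpr. Genes were fitted with edgeR 4.0.16 (TMM, robust glmQLFit, no covariate) and p-values adjusted by Benjamini-Hochberg over all genes tested, with a common biological coefficient of variation of 0.120. The SE of a log2 fold change was derived as its absolute value divided by the square root of the F statistic. DESeq2 1.42.0 and limma 3.58.1 in R 4.3.3 served for alternatives, and Python 3.11.15, numpy 2.4.6, pandas 2.3.3 and matplotlib 3.10.9 for the rest, after tests on simulated data. Coordinates and exon overlaps come from the Ensembl annotation of BDGP6.54, which matched 17506 identifiers and is a later annotation than the one the authors used.

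The enzymes, other pathway genes, markers and ratios were chosen with earlier results of these data known, so counts over them and p-values of the ratios are descriptions. All enzymes found were named. Other pathway genes were named where called, up to 4 of each sub-list by smallest p, and further ones (Pdhb, Glut1, sima and Pdk) with their values known. Libraries that share a number had correlations of deviations from group means of 0.138, 0.433, 0.220 and 0.137 across genes, all above the limit of 0.1. A block on replicate number was therefore run as an alternative, and the main fit had none. Differently numbered libraries reached 0.0693 for replicates 1 and 2 and 0.221 for replicates 3 and 4, so pairing of replicates 3 and 4 is not established. Promoter motifs were not searched.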

Additional observations from a re-analysis of the deposited data

Results flagged for a closer look

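In the 62 groups of 4 libraries checked (each enzyme tested and each ratio, in each genotype), 3 held a library whose gap to its nearest neighbour was above Dixon's critical share of the group's range, a limit that chance passes in about 1 in 20 groups. All 3 were control groups. CG17333 stood at 16.1 CPM in control replicate 4, against 14.2 CPM in the other 3 control libraries, a gap of 0.977 of the range. Pgd stood at 51.9 CPM in control replicate 1, against 50.1 to 50.3 CPM in the others, a gap of 0.887 of a narrow range. The log2 ratio of Zw to Pgi was −4.49 in control replicate 3, against −4.32 to −4.29 in the others, a gap of 0.878 of the range.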

How the results depend on the processing

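Of the 11 calls among the enzymes, 10 held under all 17 alternatives, which were other normalizations, no filter, DESeq2, limma-voom, rounded deposited values, the replicate block, each library left out, and REPTOR[ACT] replicates 2 and 3 left out together, a setting chosen after seeing the data. The exception was Zw. Over all genes, the number called ran between 3583 (total library size only) and 5233 (replicate block), against 4377 in the main fit. The number of enzymes called lower was 9 to 10 throughout. The number called higher was 1 with total library size only, 4 by DESeq2 and 1 to 5 when single libraries were left out, with 5 without REPTOR[ACT] replicate 2 (Pglym78, Zw, Pgd, CG8036 and Taldo). It was 1 without REPTOR[ACT] replicates 2 and 3, where the log2 fold change of Pfrx was −0.082. The number past the study's threshold was 1 to 2 when single libraries were left out, CG7069 being the second without REPTOR[ACT] replicate 3. Blocked on replicate number, 10 enzymes were lower and 3 higher, the changed calls being those of Gpo1 and Ldh, and the block changed no other call of an enzyme. Over all 9903 genes tested, 5233 were called with the block and 4377 without it.

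When single libraries were left out, the log2 fold change of Pfrx ran between −0.023 and 0.095, of fbp between −0.036 and 0.19, of Rpi between −0.084 and 0.26 and of CG8036 between −0.0081 and 0.28, and the log2 difference of the Hex-C to Hex-A ratio between −0.00015 and 0.36. That of the fbp to Pfk ratio ran between 0.31 and 0.58. With same-numbered libraries paired, the log2 differences of the ratios of Gapdh2 to Gapdh1 (−0.51), Zw to Pgi (0.93) and Ldh to Gpdh1 (0.88) no longer passed, because 4 pairs allow no smaller exact p than 0.125. With mitochondrial transcripts in the denominator, the log2 difference of the summed share was −0.19 for glycolysis and −0.16 for all 29 enzymes, against −0.29 and −0.27 of nuclear reads. Of the 17 other pathway genes called, 10 held their call under all alternatives and 7 (Pgm1, Gfat1, Gk1, ERR, Pdk, Mondo and Myc) lost it under some. The ratio of Pepck to PyK and the search of promoters for motifs were not run. Depth limits CG9961 and CG7069, with 397 and 413 reads in the 8 libraries together.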
